A study of Mus musculus with 4 samples.

Results

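Haptoglobin (*Hp*), hemopexin (*Hpx*), ceruloplasmin (*Cp*), serum amyloid P component (*Apcs*), lipopolysaccharide-binding protein (*Lbp*), the inter-alpha-trypsin inhibitor heavy chains *Itih1*, *Itih2*, *Itih3* and *Itih4*, and fibrinogen-like 1 (*Fgl1*) are secreted plasma proteins of the liver. Their 10 genes were looked up by symbol in the 4 deposited tables, and all 10 were found among the 3113 genes that at least 1 table lists. Liver RNA was sequenced from CypD-/- + LPS, WT + LPS, CypD-/- and WT mice, 1 library for each of the 4 groups, and each table compares a pair of these libraries. The mice were C57BL/6 males of 16 to 20 weeks, and the CypD-/- mice carried a constitutive deletion in *Ppif*, the gene of cyclophilin D, in every tissue. LPS from *Escherichia coli* was injected once intraperitoneally at 40 mg per kg and PBS was given to the CypD-/- and WT groups, with the liver taken 24 h later. RNA of 3 mice was pooled for each library, although the figure legends state an n of 5, so no fold has an error and no test between groups was possible.

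These proteins belong to the acute phase response. Inflammatory cytokines, mainly interleukin-6 through STAT3 and interleukin-1 through NF-kappaB and C/EBP factors, make hepatocytes change which plasma proteins they secrete. Haptoglobin binds free hemoglobin and hemopexin binds free heme, which limits oxidative damage after red cells break down, and ceruloplasmin carries copper and oxidises iron. Lbp hands LPS to the receptor complex that starts Toll-like receptor signalling. The heavy chains other than that of *Itih4* are joined to the light chain bikunin and can be transferred to hyaluronan in the matrix.

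Each table gives a signed fold and holds only genes past 1.5-fold and a q-value of 0.05 by the authors' test, so "rose" and "fell" are used below of listed genes alone, and nothing is known of the size of other differences. The tables hold no counts and no levels per library, so the depth behind a fold is unknown, and hepatocyte identity could not be checked from marker levels. *Ppif* was 2.72-fold lower in CypD-/- than in WT mice by the authors' table. It was also 2.20-fold lower in WT + LPS than in WT mice, and is not listed between CypD-/- + LPS and WT + LPS mice. The listed folds thus do not show the deletion between the LPS-treated libraries. A fold per gene cannot resolve lost exons, and the paper reports their deletion from read alignments of *Ppif* in WT and CypD-/- mice. The WT + LPS library stood apart in Y-linked genes: *Ddx3y* and *Eif2s3y* were 14.4- and 24.9-fold lower in it than in the WT library, and 14.3- and 29.2-fold higher in the CypD-/- + LPS library than in it, although the methods describe males only. *Eif2s3y* was also 1.98-fold higher in CypD-/- than in WT mice, a comparison without that library. No Y-linked gene of these is listed between CypD-/- + LPS and CypD-/- mice. Results that involve the WT + LPS library could not be given without it, and the part of this difference in them was not tested. Of 74 genes listed in all 4 tables, 71 gave the same product of folds both ways around the design within 0.01 on the log2 scale.

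The genes lie on 6 chromosomes, and *Itih4*, *Itih3* and *Itih1* are neighbours on chromosome 14. On GRCm38 (GENCODE M21), *Hp* spans chromosome 8 from 109575128 to 109579172 on the minus strand, with 5 exons in its longest coding transcript. *Fgl1* lies on the same chromosome from 41191434 to 41215156, also on the minus strand, with 8 exons. *Hpx* lies on chromosome 7 from 105591613 to 105600137 (minus strand, 10 exons), *Apcs* on chromosome 1 from 172893961 to 172895041 (minus strand, 2 exons) and *Cp* on chromosome 3 from 19957054 to 20009145 (plus strand, 20 exons). Chromosome 2 holds *Lbp* from 158306493 to 158332852 (plus strand, 15 exons) and *Itih2* from 10094593 to 10131396 (minus strand, 21 exons). On chromosome 14, *Itih4* runs from 30886476 to 30902353 on the plus strand, *Itih3* from 30908572 to 30923760 and *Itih1* from 30929180 to 30943289, both on the minus strand.

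Sequence before the start was available from RefSeq (GRCm38.p6) for 7 of the 10 genes in 8 windows, 2 of them for *Cp*; *Hp*, *Lbp* and *Fgl1* were not matched. The first 3 sequences below are those of the chromosome 14 neighbours, which moved in unlike directions, and the other 2 are those of *Apcs* and *Hpx*, which rose in both genotypes. Each is the 250 bases before the RefSeq start, 5′ to 3′ on the gene's strand, with exact motif matches in capitals. That start can differ from the GENCODE positions above. The *Itih3* and *Hpx* stretches therefore overlap the genes as GENCODE places them.
Itih4 (chr14:30886226-30886475, plus strand): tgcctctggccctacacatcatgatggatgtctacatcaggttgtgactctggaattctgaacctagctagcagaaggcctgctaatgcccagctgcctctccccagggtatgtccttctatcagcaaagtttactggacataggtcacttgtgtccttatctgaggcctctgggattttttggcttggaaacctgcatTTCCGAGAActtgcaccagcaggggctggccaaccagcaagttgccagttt
Itih3 (chr14:30923588-30923837, minus strand): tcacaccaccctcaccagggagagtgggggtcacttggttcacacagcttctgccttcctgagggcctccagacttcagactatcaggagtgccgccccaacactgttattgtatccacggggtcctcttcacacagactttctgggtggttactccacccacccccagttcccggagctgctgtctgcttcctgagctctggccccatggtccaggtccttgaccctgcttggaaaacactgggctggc
Itih1 (chr14:30943290-30943539, minus strand): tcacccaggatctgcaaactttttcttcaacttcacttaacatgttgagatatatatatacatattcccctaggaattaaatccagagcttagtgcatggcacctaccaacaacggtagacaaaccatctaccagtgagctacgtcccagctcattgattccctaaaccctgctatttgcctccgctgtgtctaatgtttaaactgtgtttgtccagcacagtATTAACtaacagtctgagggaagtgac
Apcs (chr1:172895055-172895304, minus strand): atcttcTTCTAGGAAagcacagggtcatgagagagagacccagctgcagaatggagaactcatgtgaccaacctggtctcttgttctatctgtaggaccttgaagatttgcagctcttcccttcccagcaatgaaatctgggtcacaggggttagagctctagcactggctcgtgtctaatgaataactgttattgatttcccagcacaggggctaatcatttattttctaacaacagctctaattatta
Hpx (chr7:105600117-105600366, minus strand): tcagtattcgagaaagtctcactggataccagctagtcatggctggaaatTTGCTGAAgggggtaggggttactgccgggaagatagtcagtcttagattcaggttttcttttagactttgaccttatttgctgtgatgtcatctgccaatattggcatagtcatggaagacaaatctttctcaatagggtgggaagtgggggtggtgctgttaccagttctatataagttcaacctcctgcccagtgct

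The motifs were searched on both strands in windows that also held 50 bases after the start. The STAT motif TTCNNNGAA was found 51 bases before the start of *Itih4* and 244 bases before that of *Apcs*, thus in 2 of the 8 windows, against 8.3% of 32851 windows of all genes. The C/EBP motif TTGCNNAA was found in 3 windows, those of *Hpx* (200 bases before the start), *Cp* (70 bases) and *Itih2* (33 bases), against 10.8% of all windows. All distances are from the RefSeq start of the window, and that of *Cp* is from the start of its downstream window. The *Itih2* window lies inside the gene as GENCODE places it, and most of the downstream *Cp* window does. The HNF1 motif GTTAAT was found in 2 windows, *Itih1* (27 bases, where the capitals show its reverse complement) and *Cp* (194 bases), against 7.1%. This *Cp* distance is from the start of its upstream window. TATAAA, the TATA box, was found in 3 windows, against 13.6%; in *Cp* its 2 matches overlap each other, in *Itih4* the match begins 3 bases before the start and runs past it, and in *Itih3* it lies after the start, so the *Itih4* and *Itih3* matches are outside the stretches printed. The kappaB motif was found in none of the 8 windows, against 8.46%. A match is a description of letters and not a bound site.

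Within CypD-/- mice, 7 of the 10 genes rose after LPS and 2 fell. In WT mice, 8 rose and 1 fell, and 7 genes rose in both genotypes. The genes listed as higher within CypD-/- mice make up 14.4% of the 3113 genes and those listed as lower 32.1%, whereas in WT mice the shares are 29.2% and 62.1%. Since the set of genes that the authors tested is not given, these shares are over genes listed somewhere and not over all genes measured. *Itih2* alone is in neither of these tables. The median fold of the 7 risen members within CypD-/- mice was 5.56, against 3.70 for all 448 genes that rose there. In WT mice that of the 8 risen members was 4.13, against 3.67 for all 910. Over the 7 members that rose in both genotypes, the median in WT mice was 3.94.

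**Figure D1:**
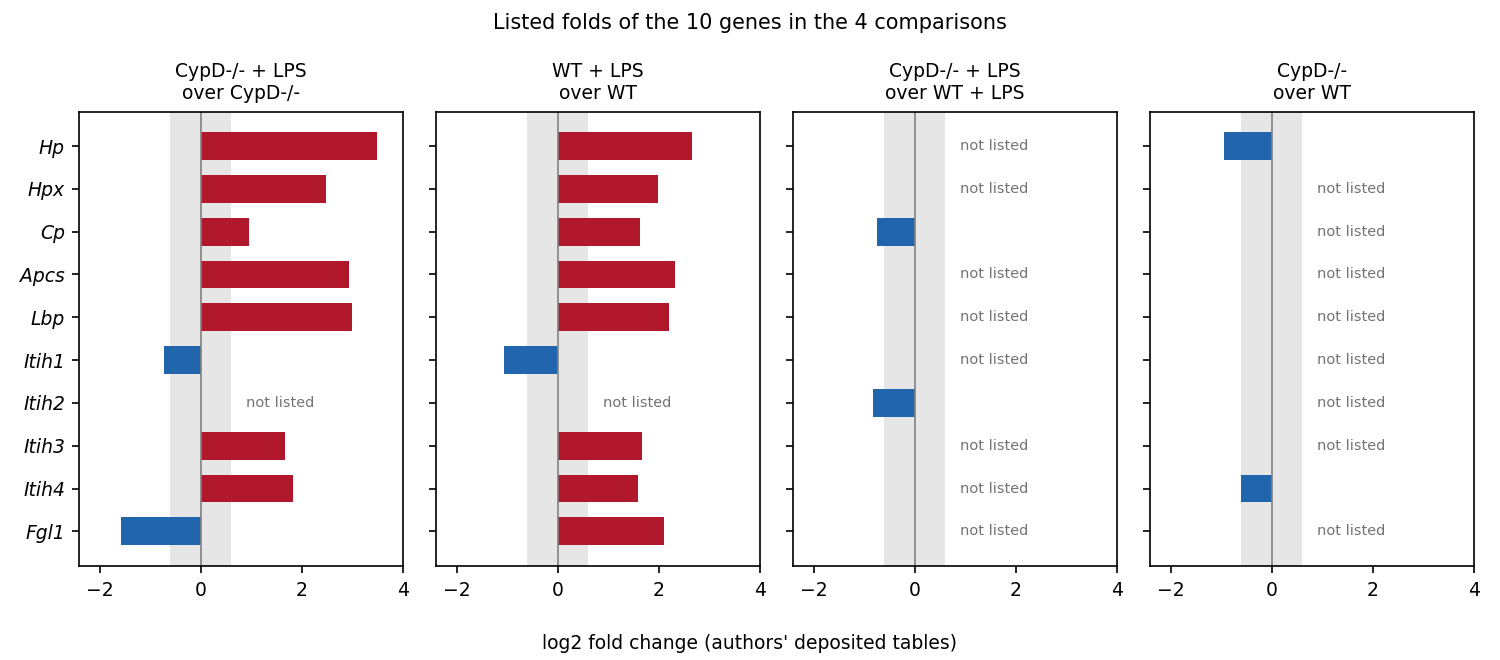
Log2 fold changes of the 10 genes in the 4 comparisons, as bars from 0 (red higher, blue lower), with the grey band marking folds under 1.5, which the tables do not hold. Most bars are in the panels of LPS effects, where 7 and 8 genes were higher, and each panel between genotypes has 2 bars, all lower.

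*Hp* had the largest LPS fold of the 10 in each genotype. It was 11.2-fold higher in CypD-/- + LPS than in CypD-/- mice and 6.29-fold higher in WT + LPS than in WT mice by the authors' tables, ranks 97 of 448 and 267 of 910 among the genes that rose. Without LPS, *Hp* was 1.92-fold lower in CypD-/- than in WT mice. Multiplying the listed folds placed *Hp* at 5.82 in CypD-/- + LPS mice and 6.29 in WT + LPS mice, relative to 1 in WT mice, and at 0.521 in CypD-/- mice. The larger fold within CypD-/- mice thus went with a lower level before LPS, and the derived levels after LPS differed 1.08-fold. Between CypD-/- + LPS and WT + LPS mice *Hp* is not listed.

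*Hpx*, the heme scavenger, rose 5.56-fold within CypD-/- and 3.94-fold in WT mice, a ratio of 1.41 between the folds. It is listed in neither comparison between genotypes, so its levels could not be placed relative to WT mice. *Cp* differed from both scavengers: it rose 1.94-fold within CypD-/- and 3.08-fold in WT mice, and was 1.67-fold lower in CypD-/- + LPS than in WT + LPS mice. The derived level of *Cp* was 1.84 in CypD-/- + LPS mice and 3.08 in WT + LPS mice, relative to 1 in WT mice. In CypD-/- mice it was 0.951, close to the WT level. *Cp* and *Itih2* were the only 2 members listed between the LPS-treated groups, and 11.8% of the 3113 genes are listed as lower there.

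*Apcs*, a pentraxin that binds bacterial surfaces and amyloid, and *Lbp* responded much alike. *Apcs* rose 7.60-fold within CypD-/- and 5.03-fold in WT mice. *Lbp* rose 7.99-fold within CypD-/- and 4.60-fold in WT mice, a ratio of 1.74 between the folds. After those of *Hp*, these were the largest rises of the 10 genes in each genotype. Neither gene is listed in a comparison between genotypes, which sets no value on their differences.

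**Figure D2:**
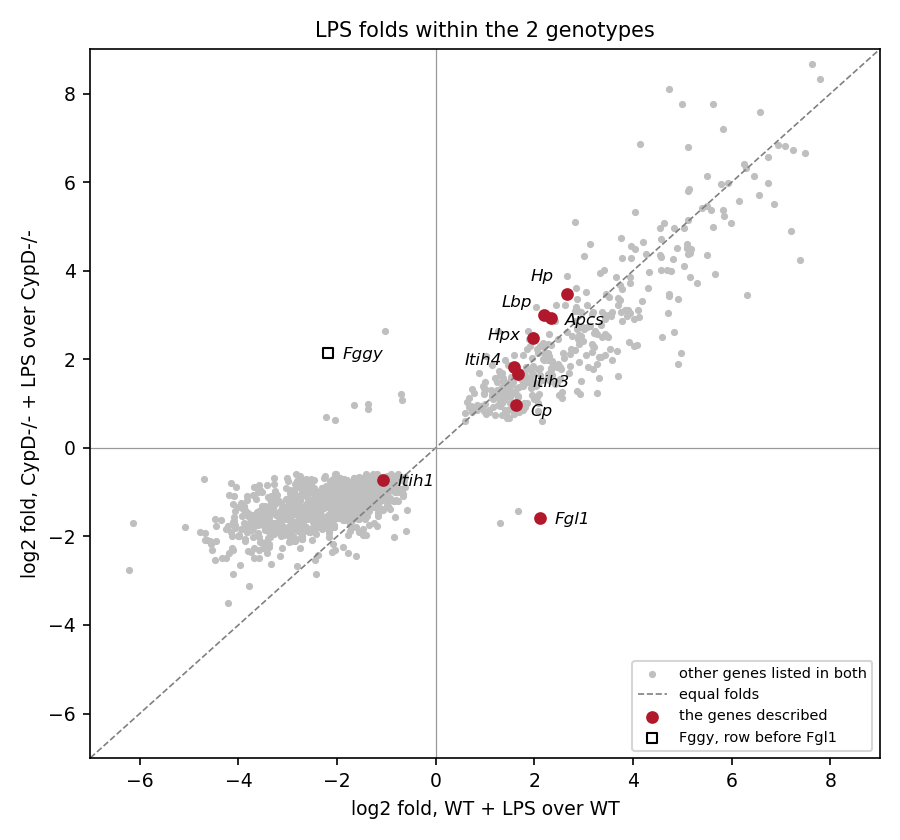
Log2 fold after LPS within CypD-/- mice (vertical axis) against that in WT mice (horizontal axis) for the 1253 genes with finite folds in both tables; red points are the genes described, the open square is *Fggy* and the dashed line marks equal folds. *Hp*, *Lbp*, *Apcs*, *Hpx* and *Itih4* lie above the line among the risen genes, *Cp* lies below it, and *Fgl1* and *Fggy* lie in opposite corners.

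Of the 7 members that rose in both genotypes, 5 had the larger fold within CypD-/- mice (*Hp*, *Hpx*, *Apcs*, *Lbp* and *Itih4*) and 2 in WT mice (*Cp* and *Itih3*). Over all 356 genes that rose in both with finite folds, 110 (30.9%) had the larger fold within CypD-/- mice. The median ratio of the fold within CypD-/- to that in WT mice was 1.41 for the 7 members and 0.812 for the 356 genes. These are descriptions of single libraries, and whether the response to LPS depended on genotype was not tested.

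The heavy chain genes did not move as a family. *Itih3* rose 3.16-fold within CypD-/- and 3.19-fold in WT mice, and *Itih4*, the heavy chain that is not joined to bikunin, rose 3.54-fold and 3.02-fold. *Itih1* fell after LPS 1.65-fold within CypD-/- and 2.10-fold in WT mice. *Itih2* is not listed after LPS in either genotype, but was 1.78-fold lower in CypD-/- + LPS than in WT + LPS mice. Thus the family held 2 genes that rose, 1 that fell and 1 that is listed only between the LPS-treated groups.

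The 3 genes on chromosome 14 share a stretch of 56.8 kb. *Itih4* and *Itih3* face each other with 6.22 kb between their ends, and 5.42 kb separate *Itih3* from *Itih1*, which is on the same strand as *Itih3*. None of the 7 other protein-coding genes within 75 kb is listed in any table. Direction therefore changed between *Itih3* and *Itih1*, whose folds in WT mice were 3.19 upward and 2.10 downward. *Itih4* was also 1.52-fold lower in CypD-/- than in WT mice without LPS, which puts its derived level at 0.656 in CypD-/- mice, and at 2.32 in CypD-/- + LPS and 3.02 in WT + LPS mice. *Hp* and *Itih4* were the only 2 members listed between the untreated groups, both lower, and 5.08% of the 3113 genes are lower there.

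**Figure D3:**
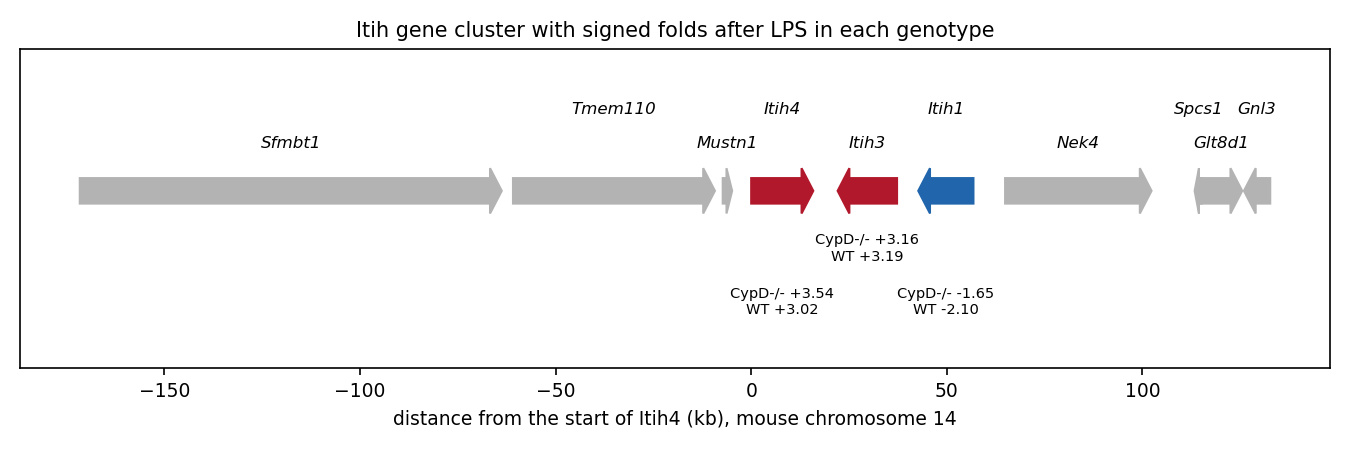
Protein-coding genes around *Itih4*, *Itih3* and *Itih1* on mouse chromosome 14, drawn to scale as arrows in the direction of transcription with distance from the start of *Itih4* in kb; numbers are signed folds after LPS in each genotype. *Itih4* and *Itih3* (red) were higher and *Itih1* (blue) lower in both genotypes, and grey genes are not listed.

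**Figure D4:**
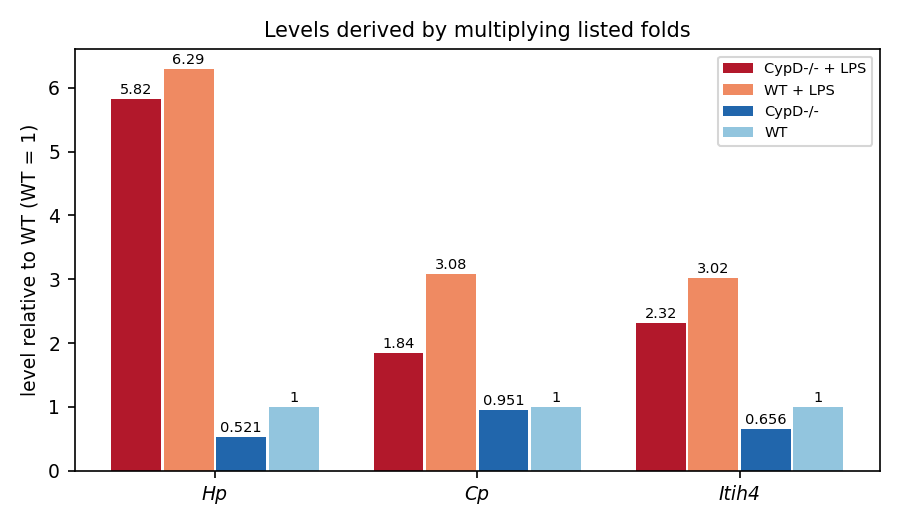
Levels of *Hp*, *Cp* and *Itih4* relative to WT (WT = 1), as products of listed folds, in CypD-/- + LPS, WT + LPS, CypD-/- and WT mice; bars are single values without error. After LPS the bars of *Hp* are 5.82 and 6.29, whereas those of *Cp* are 1.84 and 3.08.

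*Fgl1*, a liver-derived protein of the fibrinogen-like family that binds the immune checkpoint receptor LAG3, was listed with opposite signs. It fell 2.998-fold after LPS within CypD-/- mice and rose 4.31-fold in WT mice by the authors' tables. Of 1253 genes with finite folds in both tables, 12 were listed in opposite directions, and *Fgl1* was the only member among them. The effects differ 12.9-fold, so going around the 4 groups at least 1 comparison between genotypes must reach 3.60-fold, yet neither lists *Fgl1*. *Fgl1* and *Fggy* were the only 2 of the 12 in neither comparison between genotypes. Smaller gaps were more common: of 718 genes listed in both LPS tables and in no comparison between genotypes, 112 (15.6%) have LPS folds that differ by more than 2.25-fold, the product of the 2 thresholds. The gap of *Fgl1* has rank 2 among the 718.

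The largest gap is that of *Fggy*, a carbohydrate kinase gene, which stands in the row directly before *Fgl1* in both tables. *Fggy* rose 4.41-fold within CypD-/- mice and fell 4.57-fold in WT mice, the reverse of *Fgl1*, and is likewise in no comparison between genotypes. The fold in the row of *Fggy* in the table of CypD-/- mice (4.41 upward) differs 1.02-fold from that of *Fgl1* in WT mice (4.31 upward). The fold in the row of *Fgl1* there (2.998 downward) differs 1.52-fold from that of *Fggy* in WT mice (4.57 downward). Whether the values of these rows were exchanged in that table was not tested, since the tables give no second identifier. Read with the fold of the row before it, *Fgl1* would be a gene that rose in both genotypes, and the counts within CypD-/- mice would be 8 higher and 1 lower.

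Genes that act with these proteins moved in mixed directions. The counts of these and the later lists stand beside the shares of all 3113 genes. Within CypD-/- mice 14.4% are listed as higher and 32.1% as lower, and in WT mice 29.2% and 62.1%. Of 15 partners of the scavengers, 3 rose and 3 fell within CypD-/- mice, and 2 rose and 6 fell in WT mice. *Slc40a1*, the iron exporter ferroportin, fell 2.70-fold within CypD-/- and 16.8-fold in WT mice, and was 5.11-fold higher in CypD-/- + LPS than in WT + LPS mice. *Atp7b*, the transporter that loads copper onto ceruloplasmin, fell 2.89-fold and 12.2-fold. *Blvrb*, which reduces biliverdin, fell 5.19-fold in WT mice, has no entry for CypD-/- mice, and was 2.85-fold higher in CypD-/- + LPS than in WT + LPS mice. *Hmox1*, the enzyme that degrades the heme taken up with hemopexin, rose 3.88-fold within CypD-/- mice and is listed in no other table; it was named after its values were seen.

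Downstream of Lbp, 3 of 11 genes of LPS recognition rose in each genotype and none fell. *Cd14*, which receives LPS from Lbp, rose 113-fold within CypD-/- and 135-fold in WT mice, and was 2.11-fold lower in CypD-/- + LPS than in WT + LPS mice. The other genes were *Tlr2* (8.48-fold and 7.12-fold) and the adaptor *Myd88* (4.01-fold and 4.50-fold). *Tlr4*, the LPS receptor itself, is listed in no table.

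Of 14 genes of hyaluronan and the inter-alpha-trypsin inhibitor complex, 2 rose and none fell within CypD-/- mice, and 1 rose and 2 fell in WT mice. *Ambp*, which encodes bikunin, rose 1.59-fold within CypD-/- mice, without an entry for WT mice. *Lyve1*, a hyaluronan receptor of endothelial cells, rose 7.83-fold within CypD-/- and 11.7-fold in WT mice, and was 2.14-fold lower in CypD-/- + LPS than in WT + LPS mice. The hyaluronidases *Hyal1* and *Hyal2* fell 4.64-fold and 3.25-fold in WT mice, without an entry for CypD-/- mice. Listing in 1 genotype alone does not show that the genotypes differ.

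Among 11 relatives of the pentraxins and of *Fgl1*, 4 rose and 1 fell within CypD-/- mice, and 4 rose and 2 fell in WT mice. The fibrinogen chains *Fga*, *Fgb* and *Fgg* rose 6.51-, 6.67- and 5.31-fold within CypD-/- mice and 7.27-, 7.85- and 7.96-fold in WT mice. *Fgg* was also 1.60-fold lower in CypD-/- + LPS than in WT + LPS mice. All 3 had the smaller fold within CypD-/- mice, unlike *Hp*, *Hpx*, *Apcs* and *Lbp*. *Angptl4*, an inhibitor of lipoprotein lipase, rose 9.33-fold within CypD-/- and 5.40-fold in WT mice, yet was 3.07-fold lower in CypD-/- + LPS than in WT + LPS mice. *Crp*, the other short pentraxin, is not listed within CypD-/- mice and fell 2.29-fold in WT mice, whereas *Apcs* rose, and it was 1.90-fold higher in CypD-/- + LPS than in WT + LPS mice; *Crp* was named after its values were seen.

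Of 24 genes that carry the interleukin-6 and interleukin-1 signals to acute phase genes, 7 rose and 1 fell within CypD-/- mice, and 9 rose and 3 fell in WT mice. The median fold of the risen genes was 3.54 within CypD-/- and 5.70 in WT mice. These medians are over 7 and 9 genes and so not over the same set. The STAT3 feedback inhibitor *Socs3* rose 14.5-fold within CypD-/- and 15.3-fold in WT mice. *Il1r1*, the interleukin-1 receptor, rose 12.2-fold and 19.8-fold, and its antagonist *Il1rn* 45.6-fold and 116-fold. Both were lower in CypD-/- + LPS than in WT + LPS mice, *Il1r1* 1.86-fold and *Il1rn* 3.37-fold. *Osmr*, the oncostatin M receptor, rose 14.6-fold in WT mice, with no entry for CypD-/- mice. *Stat3*, named after its values were seen, rose 3.54-fold and 5.70-fold, and was 1.99-fold lower in CypD-/- + LPS than in WT + LPS mice. Between the LPS-treated groups 5 genes of this list are listed as lower and 1 as higher. Among all 3113 genes, 368 are listed as lower there and 595 as higher.

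Among 29 other positive acute phase proteins, 22 rose and 3 fell within CypD-/- mice, and 19 rose and 6 fell in WT mice. The median fold of those that rose was 9.36 within CypD-/- and 23.4 in WT mice, above the 5.56 and 4.13 of the risen members. The medians of this list are over unlike sets, of 22 and 19 genes. All 19 also rose within CypD-/- mice, whereas *C3* (1.76-fold), *Saa4* (2.12-fold) and *Cfb* (2.15-fold) rose there alone. In WT mice *C3* and *Cfb* are not listed, but *Saa4* fell 1.60-fold, so like *Fgl1* it was listed with opposite signs. *Saa4* was also 3.12-fold higher in CypD-/- + LPS than in WT + LPS mice. The low folds of *C3*, *Saa4* and *Cfb* lower the median within CypD-/- mice, so the medians do not compare the same genes. Of the 19, *Saa3* rose 193-fold within CypD-/- and 94.9-fold in WT mice, and *Serpina10* 2.50-fold and 1.67-fold. *A2m* (80.4-fold and 78.1-fold) and *Mt1* (26.3-fold and 23.65-fold) also had the larger fold within CypD-/- mice, and the others of the 19 the smaller. Without LPS, *Saa3* was 1.73-fold lower in CypD-/- than in WT mice, where *Hp* was lower too. *C3*, *Saa4*, *Cfb*, *Mt1* and *Serpina10* were named after their values were seen. Of the 29, 7 were lower and 3 higher in CypD-/- + LPS than in WT + LPS mice, and without LPS 6 were lower in the CypD-/- group. Among all 3113 genes, 368 are listed as lower and 595 as higher between the LPS-treated groups. Without LPS, 5.08% are listed as lower. Of 23 negative acute phase proteins, 10 fell and 1 rose within CypD-/- mice, and 13 fell and 1 rose in WT mice. Over the 3113 genes, 32.1% are listed as lower within CypD-/- mice and 62.1% in WT mice. The median falls of the list were 1.92-fold and 2.60-fold, over unlike sets of genes. The fall of *Itih1* was 1.65-fold and 2.10-fold. Each list shares 5 genes with other lists.

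Markers of cell types moved in the same libraries, and in bulk liver fewer cells of a type cannot be told apart from less RNA per cell. Over the 3113 genes, 14.4% are listed as higher and 32.1% as lower within CypD-/- mice. In WT mice these shares are 29.2% and 62.1%, so a majority of fallen markers there is near the share of all listed genes. The marker lists also hold genes listed nowhere, which those shares leave out. Of 11 hepatocyte markers, 6 fell and 1 rose in each genotype, opposite to most of the members; *Cyp2e1* fell 2.37-fold within CypD-/- and 5.30-fold in WT mice, and *Cps1* 2.51-fold and 4.62-fold. Of 12 Kupffer cell and macrophage markers, 1 fell and 1 rose within CypD-/- mice and 8 fell in WT mice. Of 12 neutrophil and monocyte markers, 5 rose within CypD-/- mice, and 3 rose and 1 fell in WT mice; *S100a8* rose 52.7-fold within CypD-/- and 94.0-fold in WT mice, and *S100a9* 110-fold and 34.4-fold. Of 10 endothelial markers, 1 rose and 1 fell within CypD-/- mice, and 2 rose and 3 fell in WT mice. Of 10 erythroid markers, 1 fell in each genotype, *Alas2*, by 1.77-fold within CypD-/- and 9.74-fold in WT mice. In all, 3 were higher in CypD-/- + LPS than in WT + LPS mice. Of these, the globin gene *Hbb-b1* was also 1.64-fold higher in CypD-/- than in WT mice, where *Hp* was lower. Among all 3113 genes, 595 are listed as higher between the LPS-treated groups and 87 between the untreated groups. The part of the cell type markers in the folds of the 10 genes was not tested.

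Genes whose listed folds were most like those of a member were ranked by distance, the root of the summed squared differences of log2 folds, over the 2 or 3 comparisons that list the member, among genes listed in the same comparisons with the same signs. *Hp* had only 8 such candidates and no near neighbour: the closest was *Ifitm2*, an interferon-induced membrane protein, at 1.31 log2 units, followed by *Got1* (1.96) and *Nnmt* (2.16). *Itih4* was listed in the same 3 tables with the same signs and had the same 8 candidates, with *Grn* at 0.49, *Got1* at 0.60 and *Ldha* at 0.69. *Cp* had 122 candidates, led by *Qsox1* (0.18), *Dstn* (0.19) and *Iigp1* (0.20).

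The members listed in the LPS tables alone had nearer neighbours, over 2 comparisons. *Hpx* was closest to *Pkm* (0.06), *Jun* (0.18) and *Rhoc* (0.19), and *Itih3* to *Per1* (0.05), *Xdh* (0.09) and *Slc25a51* (0.12). *Apcs* and *Lbp* shared their 3 closest genes, *Rassf1* (0.10 from *Apcs* and 0.25 from *Lbp*), *Serpina3c* (0.35 and 0.43) and *Gbp10* (0.39 and 0.24). *Itih1* had 497 candidates, led by *Lman2* (0.04), *Fam120a* (0.07) and *Gcdh* (0.07). No other gene had the pattern of *Fgl1*, higher in WT and lower within CypD-/- mice and listed in no comparison between genotypes. A small distance says only that the listed folds were alike.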

How the data were processed

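Each of the 4 libraries was made from an equimolar pool of RNA from 3 mice, depleted of ribosomal RNA and sequenced on a SOLiD instrument. The authors kept reads of 75 nt and mapped them by strand to GRCm38 in CLC Genomics Workbench, asking for 50% of a read's length at 80% similarity and allowing up to 10 places per read, so reads of similar genes can be placed on several of them. The normalization between libraries is not given in the sources used here. The deposited signed score per gene is the authors' fold change between 2 libraries, and the deposited q-value is the false discovery rate of their Kal's test, with thresholds of 1.5-fold and 0.05. These columns are the authors' own comparisons and the tables hold nothing else, so their folds are printed as the authors' values. That test compares the reads of 2 libraries and not conditions, and no q-value is printed.

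Symbols were matched without regard to letter case. Listed genes were counted by direction, and folds were compared between genotypes. Levels relative to WT were computed as products of listed folds, through CypD-/- mice for *Hp* and *Itih4* and through WT + LPS mice for *Cp*. The calculation was run on simulated levels without noise, which checks the arithmetic and not how reliable the derived levels are. Folds without a finite value were treated as infinite. The 10 members and the 12 gene lists were chosen with earlier results of these data known. Beside the members and *Ppif*, genes were named from the 4 with the largest folds in a list, but not all of these. For each member listed in both LPS tables, the 3 genes with the nearest folds were named where there were any. *Fggy*, *Tlr4*, the Y-linked genes and those so marked in the text were chosen afterwards. Positions are from GENCODE M21, and sequences from RefSeq. The alternatives were a 2-fold threshold, a q-value under 0.001, matching with letter case, leaving out predicted or numbered gene models, other medians, a margin of 1.2-fold, a second route to the derived levels and a shorter promoter window. Reading *Fgl1* with the fold of the adjacent row was added after seeing the data. Python 3.11.15 and matplotlib 3.10.9 were used.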

Additional observations from a re-analysis of the deposited data

Results flagged for a closer look

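The LPS effect on *Fgl1* had opposite signs in the genotypes: the log2 fold within CypD-/- mice minus that in WT mice was -3.69, with 1 library per group, and this difference was not tested. *Fggy*, in the adjacent row of the same tables, had the reverse signs.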

How the results depend on the processing

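With 1 library per group no replicate could be left out. At a threshold of 2-fold, the number of members listed was 0 of 10 between the LPS-treated groups and 0 of 10 between the untreated groups, against 2 in each at 1.5-fold. At that threshold 7 of 10 were listed within CypD-/- mice, without *Cp* and *Itih1*, and 9 of 10 in WT mice. Of all genes listed as higher, 374 of 448 within CypD-/- mice and 789 of 910 in WT mice passed 2-fold. Between genotypes, the median fold of all genes listed as lower was 2.14 with LPS and 1.92 without it, so many of those drop out too. A q-value under 0.001 and matching with letter case left the 4 counts of members at 9, 9, 2 and 2. By a margin of 1.2-fold, 4 in place of 5 members had the larger fold within CypD-/- mice, and 6 did when *Fgl1* was read with the fold of the adjacent row; the median fold of the risen members within CypD-/- mice was then 4.99 in place of 5.56. In the 250 bases before the start alone, 1 member window in place of 3 held TATAAA. The other route to the derived levels gave no value, because no member is listed in all 4 tables. The depth is unknown, so no interval could be set on any fold.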
